A study of Homo sapiens with 3 samples.

Results

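The growth brake genes described here are 8 genes whose products hold back cell growth or nutrient use: DDIT4, TXNIP, the sestrins SESN1, SESN2 and SESN3, the tuberous sclerosis genes TSC1 and TSC2, and TSC22D3. They were chosen by name, as inhibitors of the growth kinase complex mTORC1 and as brakes that respond to nutrients or glucocorticoids, and with their differences from the control array known. The array carried 16 probes for them, out of 36157 probes that named 25200 gene symbols. Because the same differences entered the choice, those of the members are given as a description, with no test.

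RNA came from LvM3b, a colon adenocarcinoma cell line, known as a derivative of the line LS174T selected in mice for colonizing the liver. The groups were control LvM3b cells, LvM3b cells overexpressing miR-483-5p (the sample label writes miR-483) and LvM3b cells overexpressing miR-551a, a pair of microRNAs known as suppressors of that colonization. All dishes were grown in DMEM with 10% serum and taken for total RNA at about 70% confluency, and each group had 1 biotin-labelled Illumina bead array. The sources used here do not say how the microRNAs were expressed or what the control cells carried. With 1 array per group no difference below has a replicate check, and no p-value, SD or test between groups was computed. Both comparisons with control subtract the same control array, so they are not independent of each other.

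mTORC1 drives protein synthesis and cell growth when it is bound by the small GTPase RHEB at the lysosome. The TSC1-TSC2 complex switches RHEB off, DDIT4 (also called REDD1) is a stress-induced protein that keeps TSC2 active, and sestrins hold back the amino acid input to mTORC1 through the GATOR complexes. TXNIP binds thioredoxin and limits glucose uptake, and TSC22D3 (also called GILZ) is a leucine zipper protein induced by glucocorticoids and by FOXO factors.

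Intensities are the deposited non-normalized bead signals in arbitrary units, and a probe was called detected where its detection score was above 0.99. Differences are of log2 intensity after background correction and quantile normalization, so that -1 is 2-fold lower, and 2-fold was the threshold for naming a difference. Median intensities over the 48803 probes were 84.9 (control), 88.0 (miR-483-5p) and 87.7 (miR-551a), and between 13291 and 13925 probes were detected per array. Of 10 colon epithelium markers 9 were detected in every array, all but KRT20, and their summed intensity ran from 34540.1 in control to 39259.7 in the miR-551a array. Endothelial markers were detected in no array (0 of 4). Of 6 fibroblast markers, 1 to 2 were detected, with summed intensities of 572.1, 620.8 and 650.6 in the control, miR-483-5p and miR-551a arrays. Of 6 leukocyte markers 2 were detected (CD68 and LYZ), with sums of 1021.1, 1370.1 and 1127.8, and of 5 hepatocyte markers 1 (SERPINA1), with sums of 453.5, 479.4 and 456.0. Whether these small differences between dishes have a part in the results was not tested.

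DDIT4, TXNIP and TSC22D3 were at least 2-fold lower than control in both overexpressing arrays, whereas no growth brake gene was at least 2-fold higher in either. Of the 16 probes, 10 were detected in at least 1 array, 8 in all 3 arrays and 6 in none. Of the 8 genes, 7 had a detected probe and 6 had one detected in all 3 arrays. In the miR-483-5p array 4 of 10 compared member probes were at least 2-fold lower than control, where 0.414% of all 13759 compared probes were that low and 0.305% were that much higher. With miR-551a 4 of 10 were again that low, where 0.563% of all 14039 compared probes were and 0.655% were that much higher. Counted by gene, with a gene taken as the mean of its compared probes, 3 of 7 member genes were at least 2-fold lower in each comparison. Over all genes compared, 0.37% were that low and 0.287% that high with miR-483-5p, and 0.537% and 0.582% with miR-551a. These shares stand beside the members' counts only as the background level, since the members were selected on these differences.

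**Figure D1:**
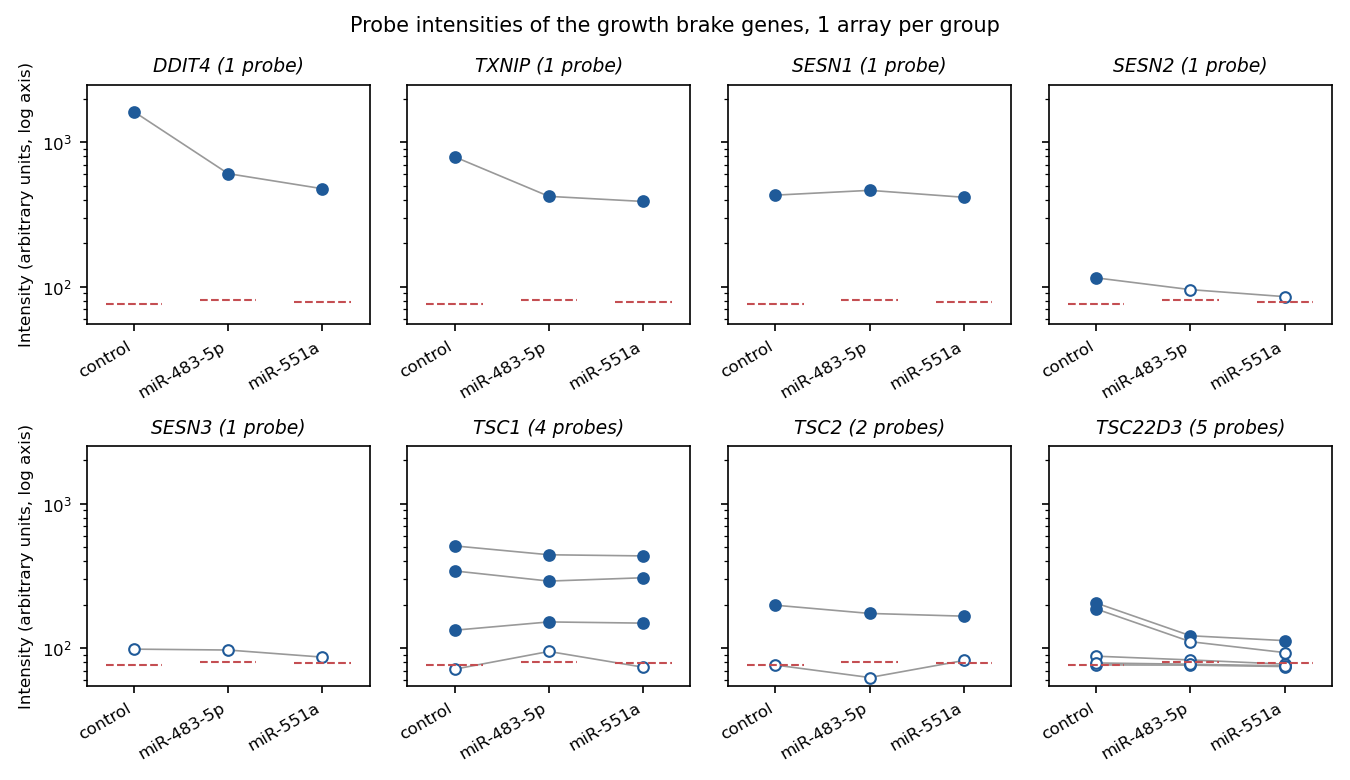
Deposited non-normalized intensity (arbitrary units, log axis) of every probe of the 8 growth brake genes in the control, miR-483-5p and miR-551a arrays, 1 array per group. Filled points were detected, open points were not, grey lines join the values of 1 probe and red dashes mark each array's mean background; DDIT4 runs from 1624.8 in control to 476.3 with miR-551a, and the SESN3 probe lies near background in every array.

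DDIT4 on chromosome 10 (chr10:72273924-72276036, plus strand, RefSeq on GRCh38.p14) was lower than control in both overexpressing arrays, by more than any other member. Its single probe read 1624.8 in control, 605.6 with miR-483-5p and 476.3 with miR-551a. The control array was thus the high one for DDIT4, and the overexpressing arrays were nearer to each other than to it. In RNA of whole dishes, fewer cells that express a gene and less RNA per cell cannot be told apart. After normalization DDIT4 differed from control by -1.59 with miR-483-5p, which is 3.02-fold lower. With miR-551a it differed by -2.05, which is 4.14-fold lower. Among all compared probes it ranked 5 from the lowest of 13759 with miR-483-5p. With miR-551a it ranked 1 from the lowest of 14039, and 2 with median centring, at a detection score above 0.95, without the detection filter and with measured values for undetected probes. Both values stayed past 2-fold under the 5 settings that changed the correction or normalization. They lay between -1.58 and -1.48 with miR-483-5p and between -2.05 and -1.82 with miR-551a.

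TXNIP on chromosome 1 (chr1:145992435-145996579, minus strand) was also lower in both overexpressing arrays. Its single probe read 791.0 in control, 421.9 with miR-483-5p and 389.0 with miR-551a. As for DDIT4, the control array alone was high. The normalized difference from control was -1.08 with miR-483-5p, 2.12-fold lower and ranked 42 from the lowest. With miR-551a the difference was -1.29, 2.44-fold lower and ranked 32. The miR-483-5p value lay close to the threshold and was -0.97 without background correction and -0.96 with median scaling, both short of 2-fold. The miR-551a value stayed past 2-fold under every alternative, at -1.07 or lower.

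TSC22D3 on the X chromosome (chrX:107713221-107775988, minus strand) had 5 probes, of which 2 were detected in control. The first read 205.7 in control, 122.2 with miR-483-5p and 113.1 with miR-551a, and was detected in all 3 arrays. It was lower than control by 2.49-fold with miR-483-5p (difference -1.31) and by 2.99-fold with miR-551a (difference -1.58). The second probe read 187.2 in control, 111.2 with miR-483-5p and 93.5 with miR-551a, and only the control value was detected. For a value that was not detected, the lowest detected level of its array was used where that was higher, which makes the fold a lower bound on the background-corrected scale. On that scale the second probe was at least 2.37-fold lower with miR-483-5p and at least 2.63-fold lower with miR-551a. Its uncorrected intensities differed by 1.68-fold and 2.0-fold. Both detected TSC22D3 probes therefore pointed the same way. The other 3 probes read between 74.9 and 88.3 in all arrays and were detected in none, and which transcripts each probe reads was not used here. As the mean of its 2 compared probes, TSC22D3 differed from control by -1.28 with miR-483-5p and -1.49 with miR-551a. These signals lay close to the array background, whose mean was 76.2 to 80.6, and without background correction the gene's means were -0.745 and -0.84, short of 2-fold in both comparisons.

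TSC1 and TSC2, whose proteins form the complex that inactivates RHEB, differed from control by less than 2-fold at every detected probe. TSC1 (chr9:132891349-132945378, minus strand) had 3 detected probes. One read 342.7 in control, 291.6 with miR-483-5p and 307.5 with miR-551a, differences of -0.32 and -0.29. Another read 510.4, 443.2 and 435.2 in the same order, differences of -0.27 and -0.38. The third detected probe went the other way, at 133.5, 152.3 and 149.4, differences of 0.30 and 0.20. The probes of TSC1 thus disagreed in direction, and their mean was -0.10 with miR-483-5p and -0.16 with miR-551a. Without the detection filter, which brings in its remaining probe, the miR-483-5p mean turned to 0.06. TSC2 (chr16:2047985-2089491, plus strand) read 198.7 in control, 174.3 with miR-483-5p and 166.9 with miR-551a at its detected probe. That probe differed from control by -0.32 with miR-483-5p and -0.48 with miR-551a, or 1.25-fold and 1.39-fold lower, and the second TSC2 probe was detected in no array.

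The sestrins were dim or little different from control. SESN1 (chr6:108984309-109094846, minus strand), a stress-responsive sestrin, read 430.2 in control, 464.3 with miR-483-5p and 415.7 with miR-551a. Its differences from control were 0.08 and -0.18, on opposite sides of 0. SESN2 (chr1:28259518-28282491, plus strand), the leucine-binding and stress-induced sestrin, read 115.4 in control, 95.7 with miR-483-5p and 85.6 with miR-551a. It was detected only in control, just above the detection limit with a score of 0.993, and the bounds were at least 1.01-fold and at least 1.12-fold lower. With its measured dim values in place of the lowest detected level, as when the detection filter is left out, SESN2 differed from control by -1.06 with miR-551a. SESN3 (chr11:95165513-95232475, minus strand), a FOXO-responsive sestrin, read 98.8, 97.4 and 87.0 and was detected in no array, so no fold is given for it.

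**Figure D2:**
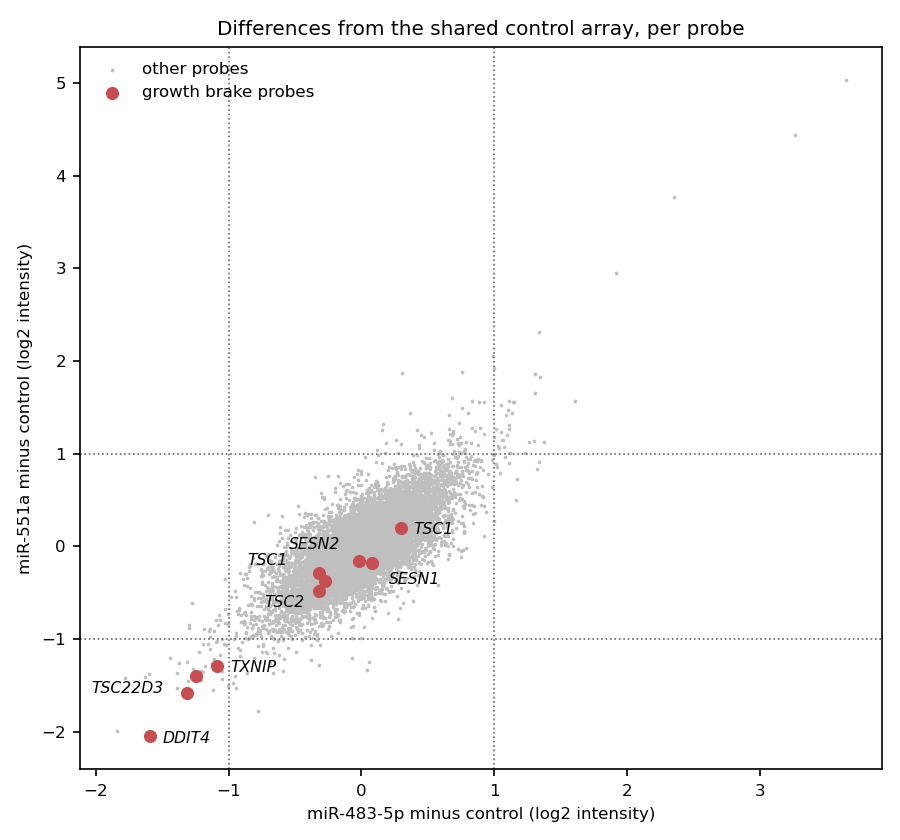
Difference from control in log2 intensity with miR-483-5p (horizontal axis) and with miR-551a (vertical axis) for every probe compared in both; dotted lines mark 2-fold and red points are growth brake probes. Both axes subtract the same control array, which by itself spreads points along the diagonal; DDIT4 lies at -1.59 and -2.05, TXNIP and both detected TSC22D3 probes lie past 2-fold on both axes, and the TSC1, TSC2, SESN1 and SESN2 points lie within it.

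The comparison of the overexpressing arrays with each other leaves the control array out. None of the 8 member probes compared differed by 2-fold between them, where 0.0291% of all 13749 compared probes were lower with miR-551a by at least 2-fold and 0.109% were higher by as much. DDIT4 was 1.37-fold lower with miR-551a than with miR-483-5p (difference -0.46), a difference that 3.15% of all compared probes matched or went below. The differences of the other members were smaller in size: -0.20 for TXNIP, -0.27 for the TSC22D3 probe detected in all arrays, -0.26 for SESN1 and -0.16 for TSC2. The 3 TSC1 probes gave 0.03, -0.10 and -0.10. Thus 7 of 8 probes and, as gene means, 6 of 6 genes were lower with miR-551a, all by less than 2-fold and without replicates. Over all probes compared 49.1% were below 0, and over all genes 49.6%. The members' counts are only a description, since these differences follow from the differences from control known when the members were chosen. The mean of TSC1 turned to 0.01 with median scaling and with median centring, and that of TSC2 to 0.08 without the detection filter.

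The promoter sequences of the 3 genes that were lower together are given because those genes are known to answer to different factors. Each line holds the 250 bases before an annotated start site, 5′ to 3′ on the gene's strand, from RefSeq on GRCh38.p14. Capitals mark matches on either strand to the CCAAT box (CCAAT), the core of the hypoxia response element (ACGTG), the E-box CACGTG, which holds that core, a FOXO site (GTAAACA), the TATA box (TATAAA), an amino acid response element (TGATGNAA), or the carbohydrate response element, which is CACGNG followed after 5 bases by CNCGNG.
DDIT4, chr10:72273674-72273923, plus strand: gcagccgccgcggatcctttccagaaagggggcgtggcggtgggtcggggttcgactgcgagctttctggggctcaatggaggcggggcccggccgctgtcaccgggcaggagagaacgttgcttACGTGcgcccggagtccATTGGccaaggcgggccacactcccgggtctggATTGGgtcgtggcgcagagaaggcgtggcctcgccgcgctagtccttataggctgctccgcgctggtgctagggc
TXNIP, chr1:145996580-145996829, minus strand: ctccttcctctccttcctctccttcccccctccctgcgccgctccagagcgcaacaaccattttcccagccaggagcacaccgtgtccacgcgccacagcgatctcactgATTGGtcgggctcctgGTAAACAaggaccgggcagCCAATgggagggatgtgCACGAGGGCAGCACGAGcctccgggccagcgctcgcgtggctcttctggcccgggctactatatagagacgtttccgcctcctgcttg
TSC22D3, chrX:107717063-107717312, minus strand: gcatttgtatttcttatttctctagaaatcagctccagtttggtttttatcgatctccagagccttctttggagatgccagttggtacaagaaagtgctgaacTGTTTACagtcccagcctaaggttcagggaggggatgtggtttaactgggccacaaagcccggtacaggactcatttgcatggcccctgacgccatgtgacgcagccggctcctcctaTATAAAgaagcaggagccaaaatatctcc
In the DDIT4 window the hypoxia core lay at -125 to -121 from the start site and CCAAT boxes at -108 to -104 and -75 to -71. The TXNIP window shown, 1 of 2 annotated, held a FOXO site at -124 to -118, the carbohydrate response element at -88 to -72 and CCAAT boxes at -140 to -136 and -105 to -101. The element at -88 to -72 is of the kind through which the glucose-sensing factors MondoA (MLXIP) and ChREBP (MLXIPL) are known to act on TXNIP. The TSC22D3 window shown, 1 of 4 annotated for that gene, held a FOXO site at -147 to -141 and a TATA box at -29 to -24. The other TSC22D3 windows held none of these motifs. CCAAT boxes also lay in windows of SESN1 and SESN2, which were not 2-fold lower in the reported values. The other TXNIP window, chr1:145995745-145995994, held the hypoxia core at -162 to -158. Of 35116 such windows in the table, 18.5% held the hypoxia core, 32.0% a CCAAT box, 10.7% the TATA box, 2.98% the FOXO site and 0.424% the carbohydrate response element. The E-box (6.34% of windows) and the amino acid response element (3.14%) matched none of the windows printed. Both matched the TSC2 window at chr16:2047735-2047984, the E-box at -114 to -109 and the amino acid response element at -110 to -103, overlapping each other. These matches describe letters in the windows, and binding was not measured.

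The mature sequence of the microRNA overexpressed in the third array is given for reference, with its seed (bases 2 to 8) in capitals, from RefSeq on GRCh38.p14.
hsa-miR-551a, chr1:3560710-3560730, minus strand: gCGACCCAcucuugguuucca
The other overexpressed microRNA was miR-483-5p. Whether either microRNA pairs with a growth brake transcript was not tested.

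The genes around the growth brakes were read in 12 lists of 145 genes, of which 142 had a probe. In the miR-483-5p array 2 of 114 compared list genes were at least 2-fold lower than control (1.75%) and 0 were higher. Over all genes compared 0.37% were that low and 0.287% that high. In the miR-551a array 4 of 115 were lower (3.48%) and 0 higher, beside 0.537% and 0.582% of all genes. The lists were chosen with earlier results of these data known, so these counts are only a description. The median difference over all genes compared was 0.00 with miR-483-5p and -0.01 with miR-551a, and 48.8% and 50.6% of genes lay below 0. The lists are set beside the members they act with.

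None of the 10 or 11 compared genes of the mTORC1 kinase complex and its substrates passed 2-fold in either comparison. Their median was 0.07 with miR-483-5p and -0.01 with miR-551a, the latter turning to 0.05 with median scaling and 0.09 with median centring. The kinase MTOR itself differed by 0.10 and -0.17, and its substrate RPS6KB1, the S6 kinase, by 0.07 and -0.01. EIF4EBP1, the translation repressor that mTORC1 inactivates, was lower by -0.55 and -0.57, and the mTOR inhibitor DEPTOR by -0.45 and -0.36. The scaffold RPTOR was detected in no array. RHEB, the GTPase that TSC1 and TSC2 switch off, differed by -0.01 and 0.11, and TBC1D7, the third subunit of the TSC complex, by 0.18 and 0.10. Both differences of RHEB and TBC1D7 were far under 2-fold.

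The sestrins act on the RAG GTPases and the GATOR complexes of the lysosome, of which 19 genes were compared and none passed 2-fold. Their median was -0.02 with miR-483-5p, turning to 0.06 without the detection filter, and 0.01 with miR-551a. RRAGC was higher by 0.46 and 0.64, and RRAGB was lower by -0.35 and -0.52. Upstream of TSC2, none of 14 or 15 genes of the PI3K, AKT and AMPK arms passed 2-fold, with medians of -0.05 and -0.10. PRKAG1, a regulatory subunit of AMPK, differed by -0.41 and -0.30.

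Beside TXNIP, thioredoxin (TXN) and its reductase TXNRD1 were slightly higher than control, by 0.29 and 0.34 with miR-483-5p and by 0.22 and 0.31 with miR-551a. ARRDC4, the alpha-arrestin most like TXNIP in its response to glucose, differed by -0.47 and -0.62. MLXIPL, which encodes ChREBP, differed by -0.58 and -0.78, and MLXIP was detected in no array. None of the 11 genes of this list passed 2-fold, and the list's median was 0.01 and 0.08, the first turning to -0.03 with median scaling and -0.05 with median centring. With miR-483-5p 5 of them lay below control and 6 above, and with miR-551a 3 below and 8 above. The alpha-arrestin ARRDC3 differed by 0.28 and 0.04, and the mitochondrial reductase TXNRD2 by -0.21 and 0.08.

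Beside TSC22D3, its family member TSC22D1 differed by -0.03 with miR-483-5p and -0.51 with miR-551a, and TSC22D2 by -0.25 and -0.02. The DDIT4 paralog DDIT4L was detected in no array. Among glucocorticoid-responsive genes KLF9, a transcription factor, read 405.6, 273.5 and 218.6 and differed by -0.76 and -1.25, the latter 2.37-fold lower but short of 2-fold in 3 of 11 alternative settings, at up to -0.94. FKBP5, a co-chaperone that glucocorticoids induce, went the other way with 185.3, 284.1 and 281.0, differences of 0.81 and 0.74. Of the 8 genes compared 0 passed 2-fold with miR-483-5p and 1 with miR-551a, the medians were -0.05 and -0.19, and the receptor NR3C1 was detected in no array. With miR-483-5p 5 of the 8 lay below control and 3 above, and with miR-551a 6 below and 2 above. The part of glucocorticoids in the TSC22D3 difference was not tested.

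The lists of factors known to induce the growth brakes gave the following values. FOXO factors and targets had medians of -0.23 and -0.33 over 11 genes with none past 2-fold. With miR-483-5p 7 of them lay below control and 4 above, and with miR-551a 9 below and 2 above. CITED2, a FOXO-responsive transcriptional regulator, differed by -0.72 and -0.78, whereas the factor FOXO1 differed by 0.24 and 0.52. Hypoxia targets had medians of 0.00 and -0.12 over 12 and 11 genes, with HILPDA, a lipid droplet protein, at least 1.99-fold and at least 1.98-fold higher after background correction (1.51-fold and 1.53-fold in uncorrected intensity) and the glycolytic regulator PFKFB4 at -0.50 and -0.38. The first of these medians turned to -0.16 when detection in both arrays was required. With miR-551a the median ran from -0.36 to -0.04 over the alternatives. DDIT4 is known to be induced by hypoxia, and the part of hypoxia in its difference was not tested.

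The ATF4 stress response genes, which answer to amino acid shortage and endoplasmic reticulum stress, had the lowest median of the 12 lists with miR-483-5p. As gene means, all 8 compared were below control in both arrays, with medians of -0.69 with miR-483-5p and -0.56 with miR-551a. Over the alternative settings the first ran up to -0.32, without the detection filter, and the second up to -0.38. ATF4 itself was at -0.22 and -0.19 as the mean of 3 probes that disagreed in direction. These ran from -0.73 to 0.47 with miR-483-5p and from -0.68 to 0.49 with miR-551a. ASNS, asparagine synthetase, read 3789.1, 1570.3 and 1706.0 at its brightest probe and was 2.43-fold lower with miR-483-5p and 2.19-fold lower with miR-551a as the mean of its 2 probes. With miR-551a its probes differed by -1.37 and -0.89, and the mean was -0.99 without background correction and -0.91 with median scaling, short of 2-fold. TRIB3, an inhibitor of AKT that ATF4 induces, read 1399.9, 788.3 and 841.0, differences of -0.94 and -0.94. DDIT4 and SESN2 are known to respond to ATF4 as well, and the part of this response in their differences was not tested.

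Genes of the immediate early class, transcribed soon after a growth factor or a change of medium, were also low. Of 7 compared, 6 were below control in each array, with medians of -0.37 and -0.59. EGR1, a zinc finger transcription factor, read 2313.3, 1207.7 and 991.4 and was 2.07-fold lower with miR-483-5p and 2.70-fold lower with miR-551a. FOS, a subunit of the AP-1 factor, read 3467.5, 2413.6 and 1969.9, 1.55-fold and 2.01-fold lower. FOS lay at the threshold with miR-551a and was past it in 6 of 11 alternative settings, its difference reaching -0.85, while EGR1 with miR-483-5p was short of it in 2 of 10, at up to -0.98. EGR1 was thus high in the same array, control, as DDIT4, TXNIP and TSC22D3, and the part of dish handling or culture state in the growth brake differences was not tested.

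**Figure D3:**
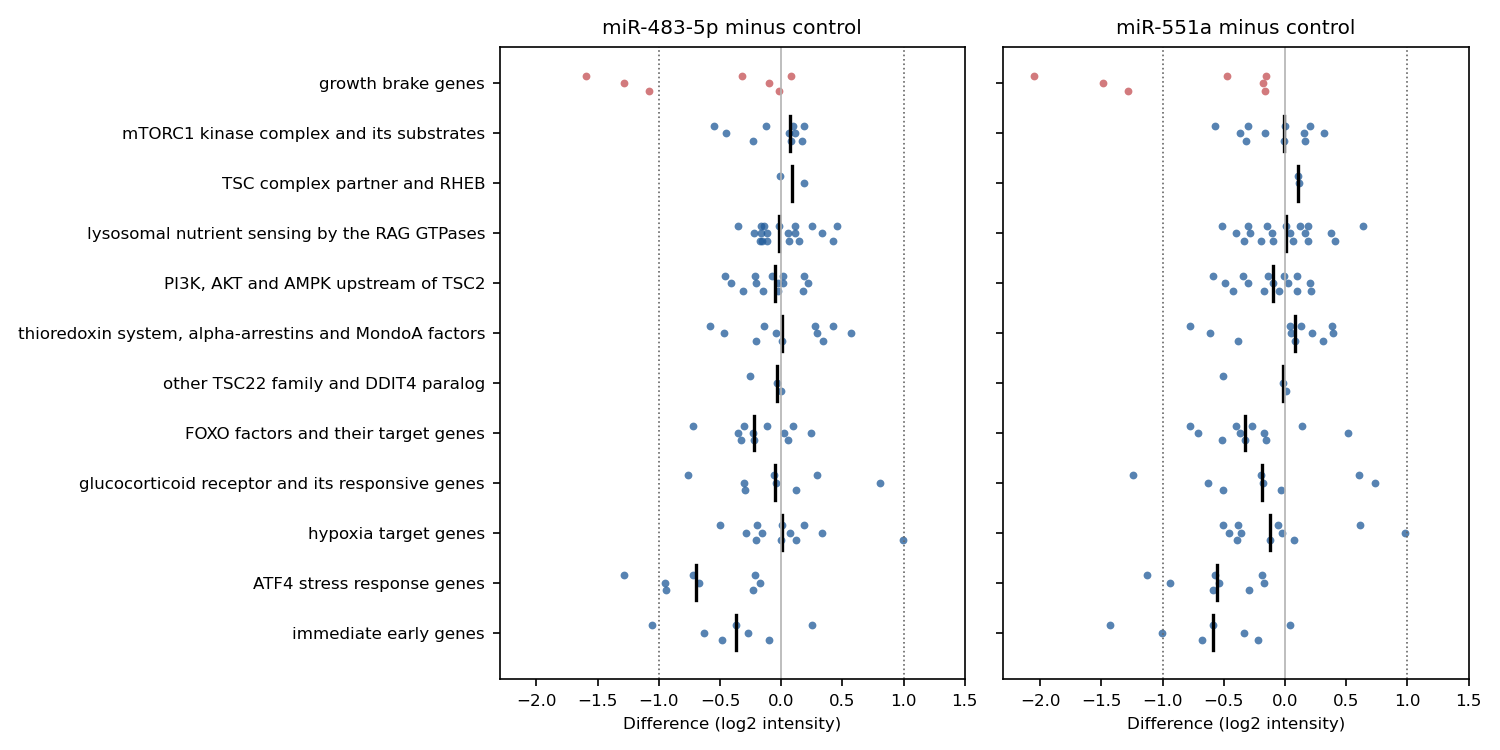
Difference from control in log2 intensity of each compared gene (points) in 11 of the 12 lists, with miR-483-5p (left) and miR-551a (right); black bars are list medians, dotted lines mark 2-fold and the 7 growth brake genes with a detected probe are in red at the top. The ATF4 list has medians of -0.69 and -0.56 and the immediate early list -0.37 and -0.59, while the mTORC1 complex list centres near 0.

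The genes whose pattern was most like that of DDIT4 and of TXNIP were sought among 9789 genes with a probe detected in all 3 arrays. Likeness was the Euclidean distance between the pair of differences from control (with miR-483-5p and with miR-551a), so it rests on 2 values that share 1 control. Nearest to DDIT4 was TSC22D3 at a distance of 0.54. Both are members that were chosen with these same differences known, so their likeness is no support for the grouping. TXNIP ranked 22 from DDIT4 at 0.92, TSC2 ranked 748, TSC1 1143 and SESN1 4047. Seen from TXNIP, DDIT4 ranked 333. The place of TSC22D3 depended on the setting. With median centring it was again nearest. It ranked 19 at a distance of 1.02 with a background offset of 50, where IL33 (0.61) and ASNS (0.63) were nearest. Without background correction it ranked 35 at 1.21, where ASNS (0.57) and IL33 (0.58) were nearest. In the reported setting, next came NCS1, a neuronal calcium sensor listed on the array as FREQ, at 0.56. The cytokine IL33 at 0.64, the homeobox gene HOXB8 at 0.66 and the small nucleolar RNA SNORD13 at 0.69 followed. IL33 read 1418.4 in control, 517.5 with miR-483-5p and 626.4 with miR-551a. Nearest to TXNIP were the noncoding RNA gene LINC00239, listed as C14ORF72, at 0.04 and the inhibitor of differentiation ID1 at 0.07. They were followed by the peptide hormone gene ADM2 at 0.08, the receptor tyrosine kinase gene KIT at 0.09 and SEZ6L2 at 0.11. ID1 and KIT stayed among the 5 nearest to TXNIP without background correction, with a background offset of 50 and with median scaling. LINC00239, ADM2 and SEZ6L2 did not stay under these settings. With median centring ID1, SEZ6L2, ADM2 and LINC00239 stayed and KIT did not. ID1 read 866.2, 465.7 and 407.3, close in its differences (-1.05 and -1.35) to those of TXNIP.

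**Figure D4:**
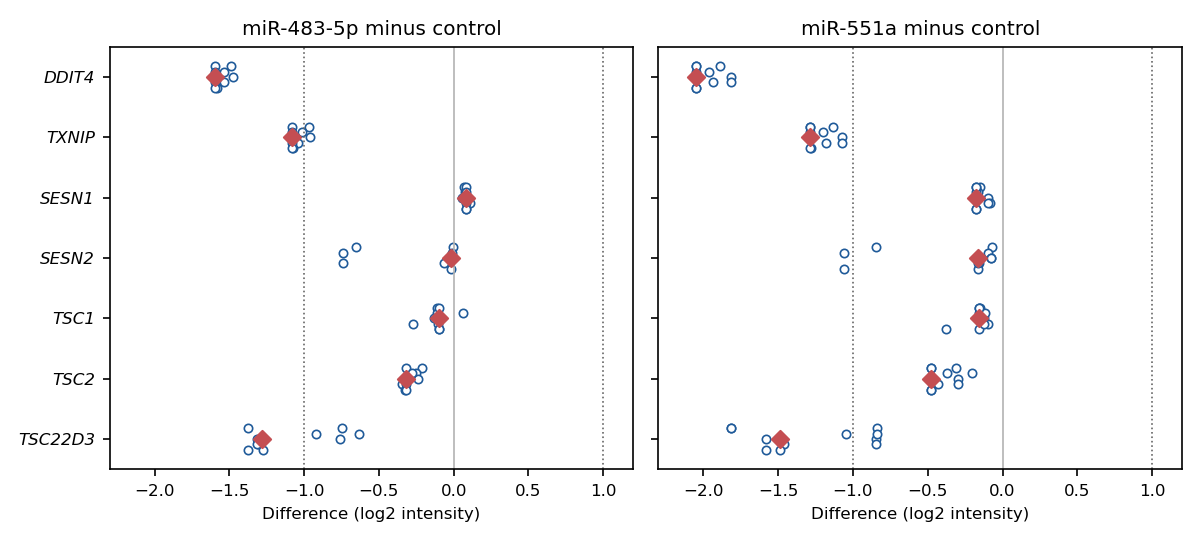
Difference from control in log2 intensity of the 7 growth brake genes with a detected probe, with miR-483-5p (left) and miR-551a (right); red diamonds are the reported values, open circles the alternative settings and dotted lines mark 2-fold. DDIT4 stays below -1 under every setting, TXNIP crosses -1 with miR-483-5p at -0.97 and -0.96, and TSC22D3 ranges from -1.38 to -0.63 and from -1.81 to -0.84.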

How the data were processed

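Total RNA of 3 LvM3b dishes, 1 per group, was hybridized to Illumina bead arrays after biotin labelling, per the labels' protocols. For each of 48803 probes the authors deposited a non-normalized intensity and a detection score per array, per the file headers; the deposited score is a fraction from 0 to 1 that was near 1 for bright probes. Scores above 0.99 were taken as detected, which is a p of less than 0.01. The scanner software is not given in the sources used here. In the authors' deposited table of normalized intensity, the miR-551a column was 0.968 times its own non-normalized column, but the column named for miR-483 was 0.934 times that of the miR-551a array, so it was not used for miR-483-5p. Which deposited table is in error could not be told, and every miR-483-5p value assumes that the non-normalized column is named correctly.

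Intensities of the 3 arrays were background-corrected and quantile-normalized together (limma 3.58.1 under R 4.3.3, function neqc, offset 16), and log2 differences were taken between arrays. The steps were tested on simulated data with changes larger than 2-fold, in bright probes only. Such data do not test calls near 2-fold or near background. A probe was compared if it named a gene symbol (12646 of 37846 targets did not) and either array of the comparison detected it. The lowest detected level of an array stood in for lower undetected values. Where this removed or reversed the difference, no fold is given and 0 was used in means, medians and shares. A gene is the mean of its compared probes. The members and lists were chosen with earlier results of these data known. Named are every member, any list gene past 2-fold and the 5 genes nearest to DDIT4 and to TXNIP. Also named are direct partners of the members and, in each list, some of up to 4 genes with the largest differences shared by both comparisons. ARRDC3, TXNRD2, FOXO1 and ATF4 lie outside this rule and are named for values or probes that differed in direction. Of 25200 symbols, 15712 were current in the RefSeq gene table. All 8 members matched it, and promoters and the miRNA came from RefSeq tables on GRCh38.p14. Settings varied were the background correction, the normalization, the detection filter, the source table and the probe taken for a gene (10 settings), and 1 more was chosen after seeing the data. With 1 array per group the number of arrays limits the precision, and no test was run. The values of 2 genes and 1 list are not reported here. No paired analysis was possible because each group had 1 array.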

Additional observations from a re-analysis of the deposited data

How the results depend on the processing

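DDIT4 kept its direction and stayed past 2-fold in both comparisons with control under the 5 settings that changed the correction or normalization, and TXNIP did so with miR-551a. The detection, lowest-level and brightest-probe settings could not move either gene, which has 1 probe detected in every array, and the deposited normalized table repeats median scaling. With miR-483-5p, TXNIP moved to -0.97 without background correction and to -0.96 with median scaling, and the count of member genes at least 2-fold lower went from 3 to 1 under both of these settings. TSC22D3, read near background, moved to -0.745 without background correction, -0.92 with a background offset of 50, -0.76 with median scaling and -0.63 without the detection filter with miR-483-5p, and with miR-551a to -0.84 without background correction, with median scaling, without the detection filter and in the authors' deposited normalized table. With miR-551a, SESN2 moved to -1.06 without the detection filter and with measured dim values. No called member changed sign under the alternatives run.

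The counts of probes past 2-fold depended on the setting. With miR-483-5p the 57 lower probes became 18 without background correction, 24 with an offset of 50, 17 with median scaling, 100 without the detection filter and 95 with measured dim values. The 42 higher ones became 15, 18, 16, 92 and 79 in the same order, and 64 at a detection score above 0.95. With miR-551a the 79 lower probes became 31, 44, 26, 139 and 134 in the same order, and 26 in the authors' deposited normalized table. The 92 higher ones became 44, 52, 53 and 145 for the first 4 of these settings, and 53 in the deposited table. The cause of these shifts was not tested. The share of higher probes among those past 2-fold with miR-551a was 53.8%, against 67.1% with median scaling and 66.7% with median centring. Between the overexpressing arrays 0 to 31 probes were lower and 6 to 48 higher. Leaving out a replicate was not possible with 1 array per group.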
